A study of Mus musculus with 19 samples.

Results

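The Cyp4 fatty acid omega-hydroxylases were examined in liver RNA of mice with and without RALY, an RNA-binding protein of the hnRNP group. The genes were chosen by symbol from the table of 24054 genes and are the 10 rows Cyp4a10, Cyp4a12a, Cyp4a12b, Cyp4a14, Cyp4a31, Cyp4a32, Cyp4f13, Cyp4f14, Cyp4f15 and Cyp4v3. All 10 were found and all 10 passed the filter on low values. The question put to the data was how each of these enzymes' transcripts responded when Raly was deleted from hepatocytes.

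Cyp4 enzymes are microsomal cytochromes P450 that add oxygen to the terminal (omega) carbon of fatty acids and related lipids, with electrons passed on by cytochrome P450 reductase. The omega-hydroxy acids are oxidised further to dicarboxylic acids, which are shortened in peroxisomes, so that the pathway runs beside mitochondrial beta-oxidation. In rodent liver Cyp4a10 and Cyp4a14 are classical targets of the fatty acid receptor PPARA, Cyp4a12a is expressed mainly in males, and the Cyp4f enzymes act on leukotriene B4, arachidonic acid and vitamin E.

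Both groups were male Raly flox/flox mice on a C57BL/6 background, fed chow and given an adeno-associated virus by intraperitoneal injection (5e+11 genome copies per mouse). L-RalyKO mice (n = 3) received AAV8.TBG.Cre and control mice (n = 3, called wild type in the sample labels) received AAV8.TBG.GFP, and livers were taken 4 weeks later. The TBG promoter drives Cre in hepatocytes, and other liver cells are not its target. The age of these mice is not given in the sources used here, nor whether those used for RNA-seq were fasted. The study mentions fasting mice beside a quantitative PCR result on livers of chow-fed mice. Its figure legend gives 4 mice per group for the RNA-seq, and the table used here holds 3 per group. Of the 19 samples of the series, 13 ATAC-seq and ChIP-seq samples were not analysed here. The values are reads per gene per 1000000 reads of effective library size, a signal not divided by gene length, and 28302983 to 38052705 reads per mouse lay on genes. Groups were compared with limma on log2(value + 1) for the 11580 genes whose mean value reached 1, and p values were adjusted over all 11580 by the Benjamini-Hochberg method. Every fold change is on that scale. The smallest p that permuting 3 mice against 3 exactly can give is 0.1.

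Raly itself stood at 6.34, 6.61 and 7.39 in L-RalyKO and at 50.1, 48.6 and 46.8 in control livers, which matches the labels of the 6 libraries. In some genes named below control mouse 3 was the outlying control, but over all genes together control mouse 1 stood apart. Its counts differed from those of the other controls by a chi-square per degree of freedom of 71.1 and 84.3, against 12.6 to 27.4 for the other pairs of a group, so values or calls without it are given beside the named genes that passed the test. Hepatocyte markers were abundant in each library. The 8 markers summed to between 102688 and 103752 in L-RalyKO mice and between 91764 and 100453 in controls, without overlap. Of the 8, 1 (Tdo2) was at adjusted p under 0.05 (0.0265, and 0.0605 without control mouse 1, limma). In this list edgeR and limma voom each called 1 and DESeq2 3, all higher. All 8 had a log2 fold change above 0, and 4 were higher without overlap, where 14.4% of all tested genes were. The 8 neutrophil markers summed to at most 0.982 and the 8 lymphocyte markers to at most 4.10 in any mouse. The sums of the Kupffer cell (157.8 to 202 against 152 to 227), endothelial (222 to 277 against 252 to 260), stellate (218 to 287 against 224 to 249) and cholangiocyte (32.3 to 41.2 against 32.6 to 34.8) markers overlapped between L-RalyKO and control mice. The adipocyte markers summed to between 11.1 and 12.9 in L-RalyKO and between 16.9 and 61.2 in control mice, with 5 of the 8 at a mean under 1. Of the other 3, Cfd, which encodes adipsin, fell (log2 fold change -2.10, adjusted p = 0.0318, limma, and -1.52 with 0.0284 without control mouse 1), while edgeR and limma voom called 0 of the list and DESeq2 1. Cidec, a lipid droplet protein, was also lower without overlap (-1.41) and did not pass. The groups overlapped for Fabp4, the last of these 3 (-0.22, adjusted p = 0.368, limma). Most of the sum of 61.2, that of control mouse 1, came from Cidec (38.8) and Cfd (12.6). The part of these markers in the results was not tested. In whole liver, fewer cells of a type and less RNA per cell cannot be told apart.

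The 6 Cyp4a genes form a cluster on chromosome 4 of the mouse build NCBIM37 (mm9, GENCODE vM1 annotation). Cyp4a12a (ENSMUSG00000066071.5) runs from 114971651 to 115005420, Cyp4a12b (ENSMUSG00000078597.2) from 115084229 to 115111639, Cyp4a14 (ENSMUSG00000028715.2) from 115158805 to 115168747, Cyp4a10 (ENSMUSG00000066072.6) from 115190869 to 115206254, Cyp4a31 (ENSMUSG00000028712.5) from 115236254 to 115251618 and Cyp4a32 (ENSMUSG00000063929.6) from 115273574 to 115294207. Cyp4a14 is the only 1 of the 6 on the - strand. The Cyp4f genes lie on chromosome 17, Cyp4f15 (ENSMUSG00000073424.3) from 32822572 to 32840297 on the + strand, Cyp4f14 (ENSMUSG00000024292.7) from 33042016 to 33054023 and Cyp4f13 (ENSMUSG00000024055.8) from 33061633 to 33084347 on the - strand. Cyp4v3 (ENSMUSG00000079057.2), on the - strand of chromosome 8, spans 46391155 to 46418570.

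How far the members can be told apart in short reads differs between them, and the next sequences show it. Coding sequences of Cyp4a12a and Cyp4a12b are 98.5% identical over 1527 bases, with a longest identical run of 342 bases, and 25.6% of the 150-base words of Cyp4a12a transcripts (the read length) also occur in Cyp4a12b. Printed first are coding bases 661 to 750 of both, the 90-base window in which they differ most, with the 7 differing columns in capitals.
Cyp4a12a: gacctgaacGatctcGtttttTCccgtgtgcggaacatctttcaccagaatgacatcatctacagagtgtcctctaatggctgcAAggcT
Cyp4a12b: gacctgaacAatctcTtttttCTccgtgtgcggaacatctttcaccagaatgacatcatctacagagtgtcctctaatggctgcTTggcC

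Cyp4a10, Cyp4a31 and Cyp4a32 form another close trio, at 96.0% to 97.2% coding identity with each other, whereas Cyp4a14 has 74.9% to 76.0% identity with the other Cyp4a genes. None of the 50-base words of Cyp4a14 (0%) occurs in another protein-coding gene, against 29.2% for Cyp4a10, 46.8% for Cyp4a32, 20.5% for Cyp4a31 and 48.9% for Cyp4a12a. Printed next is the coding window in which Cyp4a14 departs most from Cyp4a10 while the trio differs least (bases 630 to 719, or 624 to 713 of Cyp4a14), with every column that varies among the 4 in capitals.
Cyp4a10: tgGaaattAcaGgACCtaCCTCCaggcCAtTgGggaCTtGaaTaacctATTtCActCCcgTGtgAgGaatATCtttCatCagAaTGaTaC
Cyp4a31: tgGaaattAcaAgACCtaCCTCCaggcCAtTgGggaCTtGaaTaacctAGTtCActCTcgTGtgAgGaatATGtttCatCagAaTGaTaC
Cyp4a32: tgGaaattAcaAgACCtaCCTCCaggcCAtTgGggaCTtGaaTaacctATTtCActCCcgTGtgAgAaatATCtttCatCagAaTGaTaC
Cyp4a14: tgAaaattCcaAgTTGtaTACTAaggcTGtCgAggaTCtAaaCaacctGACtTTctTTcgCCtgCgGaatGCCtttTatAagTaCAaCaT
In this window Cyp4a31 differs from Cyp4a10 at 4 bases and Cyp4a32 at 2, and Cyp4a14 differs at 38 of the 90. Counts of the trio and of the Cyp4a12 pair are therefore uncertain, since it is not stated how reads that match several genes were assigned, and those of Cyp4a14 are not affected by shared words. The 3 Cyp4f genes share at most 2.75% of their 50-base words with another gene. The 3' part of Cyp4v3 overlaps Klkb1 on the same strand, and 9.10% of its 50-base words also occur there.

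Of the 10 genes, 1 rose (Cyp4f14) and 1 fell (Cyp4a14) at adjusted p under 0.05, which is 2 of 10 where 6.55% of all tested genes passed (3.36% higher and 3.19% lower in L-RalyKO). Of the 8 others, 7 had a log2 fold change above 0 and 1 below, so that 8 of the 10 members were above 0 where 51.2% of all tested genes were. The median of the 10 was 0.12 against 0.00 for all tested genes, and 4 of the 10 had an unadjusted p under 0.05 (limma) where 22.7% of all tested genes did. Without control mouse 1 only Cyp4a14 passed (1 of 10). The values of L-RalyKO and control mice did not overlap in 5 of the 10, higher in 4 and lower in 1, where 28.1% of all tested genes did not overlap (14.4% higher and 13.7% lower).

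**Figure D1:**
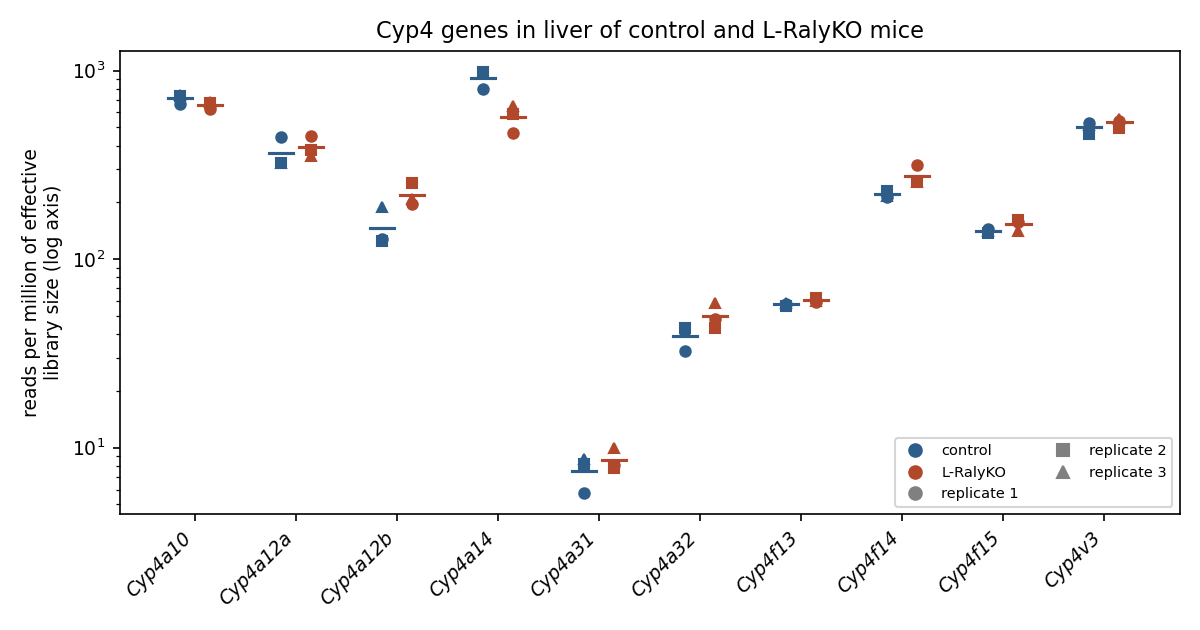
Values of the 10 Cyp4 genes by mouse, as reads scaled to effective library size, on a log axis. Each point is 1 mouse, its shape gives the replicate number and the bar is the mean of 3 mice. Control mice (blue) had 802 to 985 for Cyp4a14 and L-RalyKO mice (red) 467 to 645.

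Cyp4a14, a PPARA-inducible lauric acid hydroxylase, was the member that fell. Its change was larger than that of any other member in the fit of all 6 mice, but smaller than that of Cyp4a12b without control mouse 3 (-0.66 against 0.79) and without L-RalyKO mouse 1 (-0.57 against 0.67). Its value was 467, 590 and 645 in the L-RalyKO mice and 802, 985 and 968 in the controls. The 3 L-RalyKO values were all below the 3 control values, and the lowest mouse of both groups was the one numbered 1. The means were 567 ± 90.9 and 918 ± 101 (SD, n = 3 mice each), a log2 fold change of -0.70 (95% interval -0.98 to -0.42, standard error 0.12, adjusted p = 0.0138 from limma), or 0.615 of the control level. The two-sided exact permutation test gave p = 0.1. These values rest on 16063 to 35818 reads per mouse, for which counting error is at most 0.789%, and the coefficient of variation between mice of a group was 11.0% in controls and 16.0% in L-RalyKO. The fold change lay between -0.80 and -0.57 and its adjusted p between 4.35e-08 and 0.0463 over 17 alternative settings, among them the 6 fits that each left out 1 mouse. Without control mouse 1 it was -0.80 (adjusted p = 0.0188, limma).

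Cyp4a10, the other PPARA-inducible member, had 626, 671 and 681 in L-RalyKO and 662, 736 and 743 in control mice. The groups overlapped. Its log2 fold change was -0.11 (95% interval -0.26 to 0.03, adjusted p = 0.339, limma), so that a change as large as that of Cyp4a14 lies outside the interval. Its paralogs had log2 fold changes of 0.18 for Cyp4a31 (5.75 to 8.73 in controls and 7.83 to 9.92 in L-RalyKO mice, adjusted p = 0.509, limma) and 0.34 for Cyp4a32 (32.5 to 42.9 and 43.2 to 58.2, adjusted p = 0.152, limma). Leaving out control mouse 1 brought them to 0.019 and 0.22, and leaving out L-RalyKO mouse 3 to 0.085 and 0.23. Cyp4a31 was 0.28 without control mouse 3. Summed to 1 row, the trio differed by -0.08 on the log2 scale (adjusted p = 0.515, limma). Cyp4a31 was the lowest member, with 193 to 377 reads per mouse.

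Cyp4a12a, which encodes the male-biased arachidonic acid hydroxylase of mouse liver and kidney, had 447, 377 and 351 in L-RalyKO and 443, 325 and 325 in control mice. In both groups the mouse numbered 1 stood well above the other two, and the groups overlapped (log2 fold change 0.11, 95% interval -0.19 to 0.41, adjusted p = 0.666, limma). The value hung on single mice, with 0.014 without L-RalyKO mouse 1, 0.039 and 0.038 without control mice 2 and 3, 0.19 without L-RalyKO mouse 3 and 0.26 without control mouse 1. Its near copy Cyp4a12b had 197, 252 and 209 in L-RalyKO and 127, 124 and 190 in control mice. Here the groups did not overlap, but control mouse 3 came close to the L-RalyKO range. The log2 fold change was 0.59 (95% interval 0.23 to 0.95), with an adjusted p of 0.0622 (limma) that missed the threshold. Without control mouse 3 it was 0.79 with an adjusted p of 0.0044 (limma), without control mouse 1 it was 0.50 with 0.182, and over the other alternatives the adjusted p ran from 0.0553 to 0.188. Cyp4a12b made up 30.6% to 40.1% of the summed values of the pair in L-RalyKO and 22.3% to 36.9% in control mice, which overlap. With the pair summed to 1 row the log2 fold change was 0.26 (adjusted p = 0.133, limma).

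**Figure D2:**
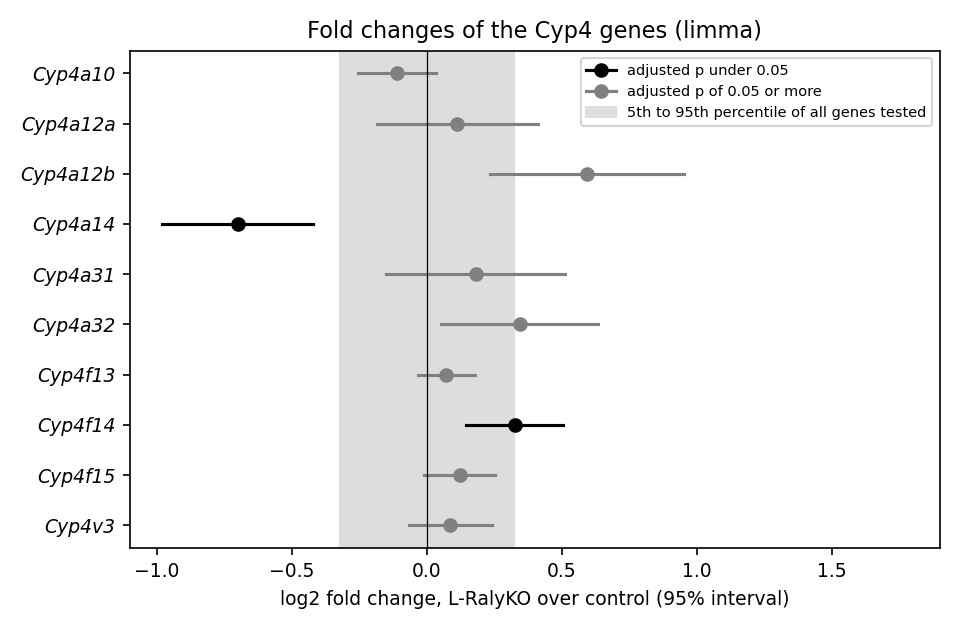
Log2 fold change of L-RalyKO over control for each Cyp4 gene with its 95% interval from limma. Black marks the 2 genes at adjusted p under 0.05, Cyp4a14 (-0.70) and Cyp4f14 (0.32), and the grey band runs from the 5th to the 95th percentile of all 11580 genes tested (-0.32 to 0.32).

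Cyp4f14, which omega-hydroxylates leukotriene B4 and the side chain of vitamin E, had 315, 261 and 256 in L-RalyKO and 214, 229 and 217 in control mice. Every L-RalyKO mouse was above every control, and L-RalyKO mouse 1 was the highest. The means were 277 ± 32.9 and 220 ± 7.78 (SD, n = 3 mice each), with a log2 fold change of 0.32 (95% interval 0.14 to 0.51, standard error 0.080, adjusted p = 0.048 from limma), or 1.25-fold. This call was close to the threshold. Over 17 alternatives the fold change stayed between 0.23 and 0.38 and the adjusted p ran from 0.00293 to 0.14, under 0.05 in 6 of them and in 0 of the 6 that left out a mouse. It was 0.31 (adjusted p = 0.14, limma) without control mouse 1.

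Its neighbours of the same subfamily had smaller differences. Cyp4f15 had 157, 162 and 142 in L-RalyKO and 145, 137 and 141 in control mice, which overlap (log2 fold change 0.12, 95% interval -0.01 to 0.25, adjusted p = 0.263, limma). Its fold change was 0.080 without L-RalyKO mouse 2 and 0.18 without L-RalyKO mouse 3. Cyp4f13 was the steadiest member, with 59.0, 62.4 and 60.2 in L-RalyKO and 57.6, 56.7 and 58.3 in control mice. Its groups did not overlap although the log2 fold change was 0.07 (95% interval -0.04 to 0.18, adjusted p = 0.41, limma). Within a mouse, the log2 ratio of Cyp4f14 to Cyp4f13 was 2.17 ± 0.20 in L-RalyKO and 1.92 ± 0.067 in control mice, without overlap, and that to Cyp4f15 was 0.84 ± 0.16 and 0.64 ± 0.085, with overlap (SD, n = 3 mice each, exact permutation p = 0.1 and 0.2). That Cyp4f14 responded otherwise than Cyp4f15 was thus not shown.

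Cyp4v3, the mouse counterpart of the human retinal disease gene CYP4V2, was high and even in all 6 livers, with 542, 496 and 553 in L-RalyKO and 524, 460 and 515 in control mice. The groups overlapped, with a log2 fold change of 0.09 (95% interval -0.07 to 0.24, adjusted p = 0.492, limma). It was 0.029 without control mouse 2 and 0.13 without L-RalyKO mouse 2.

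The stretch before the start site of 4 members is shown because each holds a CCAAT pentamer, the core bound by NFY, a transcription factor the study examined. RefSeq promoters (GRCm38.p6, 250 bases before to 50 after the start) were given for 5 of the 10 members, Cyp4a32, Cyp4f13, Cyp4f14, Cyp4f15 and Cyp4v3. Those of Cyp4a10, Cyp4a12a, Cyp4a12b, Cyp4a14 and Cyp4a31 were not used here. Printed are the 120 bases before the start, with CCAAT or its reverse complement in capitals, for chr17:32917357-32917476 (Cyp4f14, - strand, the first of its 4 listed starts), chr17:32947362-32947481 (Cyp4f13, - strand), chr17:32685539-32685658 (Cyp4f15, + strand) and chr4:115600818-115600937 (Cyp4a32, + strand).
Cyp4f14: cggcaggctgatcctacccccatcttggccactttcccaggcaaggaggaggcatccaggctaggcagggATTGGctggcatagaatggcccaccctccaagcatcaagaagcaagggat
Cyp4f13: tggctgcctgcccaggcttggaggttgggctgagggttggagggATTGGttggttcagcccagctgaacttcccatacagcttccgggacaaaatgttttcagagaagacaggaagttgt
Cyp4f15: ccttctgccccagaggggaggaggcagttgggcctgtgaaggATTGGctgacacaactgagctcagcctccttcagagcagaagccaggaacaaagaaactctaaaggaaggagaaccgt
Cyp4a32: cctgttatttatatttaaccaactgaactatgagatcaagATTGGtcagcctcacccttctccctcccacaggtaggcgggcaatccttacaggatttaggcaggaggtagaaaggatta

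In all 4 the pentamer reads as CCAAT on the strand opposite to the gene, and its first base along the gene lies 50 (Cyp4f14), 76 (Cyp4f13), 78 (Cyp4f15) and 80 (Cyp4a32) bases before the start. Searched on both strands, CCAAT occurred in the first listed promoter of 37.9% of 27025 genes, and in 4 of the 5 members. It was present in Cyp4f14, which passed the test, and equally in Cyp4f13, Cyp4f15 and Cyp4a32, which did not. A direct repeat made of 2 copies of AGGNCA with 1 base between, a loose form of the site bound by PPARA, was in 0 of the 5 and in 0.381% of all promoters on either strand. A match of letters is a description and not a bound site.

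Levels between genes were compared per kb of the longest annotated transcript. In controls the order was led by Cyp4a14 (368 ± 40.5) and Cyp4a10 (338 ± 21.3), whose ranges overlapped, then Cyp4v3 (169 ± 11.7) and Cyp4a12a (150.4 ± 28.3), which also overlapped, and Cyp4f14 (100.2 ± 3.54; SD, n = 3 mice each). Cyp4f15 (65.0 ± 1.63) and Cyp4a12b (61.4 ± 15.4) overlapped, and Cyp4f13 (32.9 ± 0.444), Cyp4a32 (25.5 ± 3.71) and Cyp4a31 (3.15 ± 0.661) closed the order without overlap. In L-RalyKO mice Cyp4a10 (313 ± 14.0) came first and its range no longer overlapped that of Cyp4a14 (227 ± 36.4), which overlapped Cyp4v3 (179.8 ± 10.3). Cyp4a12b (91.5 ± 12.2) stood above Cyp4f15 (70.8 ± 4.88) there. The annotated model of Cyp4a32 holds the coding part only (1530 bases). This could raise its level per kb relative to the others, depending on how reads were counted, which was not tested.

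**Figure D3:**
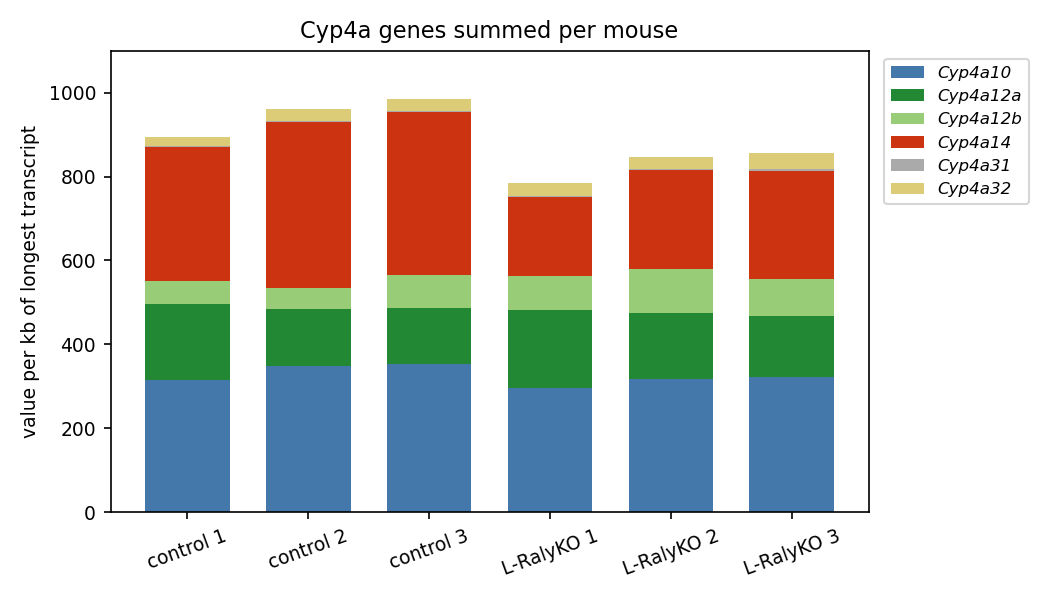
Values per kb of the longest transcript of the 6 Cyp4a genes, stacked for each mouse. Bars of control mice reach 895 to 984 and those of L-RalyKO mice 786 to 856, and the Cyp4a14 part (red) is 35.9% to 41.1% of the bar in controls and 23.8% to 30.2% in L-RalyKO mice.

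The make-up of the Cyp4a transcript pool differed accordingly. Cyp4a14 gave 38.8% ± 2.63 of the Cyp4a total per kb in controls and 27.3% ± 3.22 in L-RalyKO mice (SD, n = 3 mice each). The share of Cyp4a10 was 35.7% ± 0.63 and 37.7% ± 0.114, and that of Cyp4a12b was 6.46% ± 1.40 and 11.0% ± 1.23. Shares add up to a whole, so that a fall in one member raises the share of the others. The summed level of the 6 genes per kb was 947 ± 46.3 in controls and 829 ± 38.2 in L-RalyKO mice, without overlap. The share of the 10 members that came from the 6 Cyp4a genes was 70.5% to 73.0% in controls and 64.5% to 68.1% in L-RalyKO mice.

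Whether Cyp4a14 responded otherwise than its relatives was tested within each mouse, which takes out library scaling. The comparison with Cyp4a12a was planned, and the other ratios were added after the data were seen. The log2 ratio of Cyp4a14 to Cyp4a12a was 0.06, 0.64 and 0.88 in L-RalyKO and 0.85, 1.60 and 1.57 in control mice, a difference of -0.81 with overlap of L-RalyKO mouse 3 and control mouse 1 (p = 0.2, exact, by two-sided permutation of the mice). Without control mouse 1 the difference was -1.06. That to Cyp4a10 was -0.42, -0.19 and -0.08 in L-RalyKO and 0.28, 0.42 and 0.38 in control mice, so that Cyp4a14 was below Cyp4a10 in each L-RalyKO mouse and above it in each control on this scale, which is not per length. The difference was -0.59 (exact permutation test, p = 0.1, adjusted p = 0.133 over 12 ratios). Ratios to 8 of the 9 other members were lower in each L-RalyKO mouse than in each control, by 0.59 to 1.29 on the log2 scale, and Cyp4a12a was the exception. All 9 ratios share the values of Cyp4a14, which did not overlap between groups, so this count largely restates its fall.

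**Figure D4:**
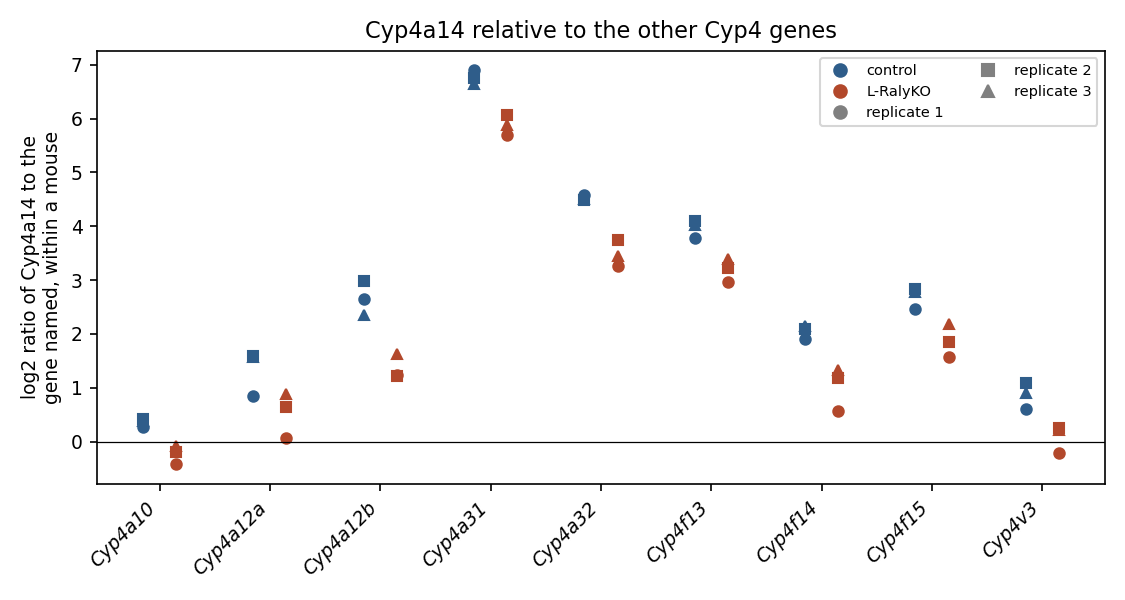
Log2 ratio of the value of Cyp4a14 to that of each other Cyp4 gene within a mouse. Each point is 1 mouse (blue, control; red, L-RalyKO), and for 8 of the 9 genes the 3 red points lie below the 3 blue ones.

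The 11 other Cyp4 rows of the table, listed by family and not by level, were low in liver. Only Cyp4b1, Cyp4f16 and Cyp4f17 passed the filter, and 0 of these 3 were at adjusted p under 0.05 in limma, edgeR, DESeq2 or limma voom (2 at unadjusted p under 0.05 in limma). Cyp4b1, which belongs mainly to lung, had 12.5, 9.95 and 10.7 in L-RalyKO and 12.6, 15.6 and 14.2 in control mice (log2 fold change -0.33, adjusted p = 0.0915, limma). Cyp4f17 had 8.96, 11.2 and 7.81 in L-RalyKO and 8.26, 6.80 and 6.76 in control mice, which overlap, with a difference in the other direction (0.31, adjusted p = 0.191, limma). Cyp4f18, a leukocyte enzyme, had 5 to 14 reads in any mouse. Cyp4a29, Cyp4a30b, Cyp4f40 and Cyp4x1 had 0 reads in each of the 6 libraries, which allows a value of up to 0.105 in the shallowest of them (3 reads).

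Partners of the Cyp4 enzymes were examined as lists. Their counts stand beside 3.36% of all tested genes that passed higher, 3.19% lower and 22.7% at an unadjusted p under 0.05. Among the electron donors, Por, which encodes cytochrome P450 reductase, rose with values of 948, 966 and 874 in L-RalyKO against 546, 631 and 672 in control mice. No L-RalyKO value overlapped a control value (log2 fold change 0.60, adjusted p = 0.00531, limma, and 0.51 with 0.0103 without control mouse 1). For Cyb5r3, the cytochrome b5 reductase, the fold change was 0.08 on the log2 scale (adjusted p = 0.549, limma). Of 6 tested genes that oxidise omega-hydroxy acids to dicarboxylic acids, 1 fell, the alcohol dehydrogenase Adh1 (1305, 1419 and 1481 against 1664, 1694 and 1659, log2 fold change -0.26, adjusted p = 0.0484, limma), and 5 did not pass. The adjusted p of Adh1 was 0.113 (limma) without control mouse 1. The median of the list was -0.19, with 5 of 6 below 0 and 3 of 6 at unadjusted p under 0.05 (limma), and DESeq2 called 2, both lower. The fatty aldehyde dehydrogenase Aldh3a2, named after its values were seen, was lower without overlap (-0.29, adjusted p = 0.142, limma). The cytosolic retinal dehydrogenase Aldh1a1, next to Adh1 the most abundant of them, differed by -0.29 on the log2 scale (adjusted p = 0.18, limma).

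Of 19 genes of peroxisomal import and beta-oxidation 2 fell, 0 rose and 17 did not pass, with a median log2 fold change of -0.14, 16 of 19 below 0 and 6 at unadjusted p under 0.05 (limma). In this list edgeR called 2, limma voom 1 and DESeq2 4, all lower. Crot, the carnitine octanoyltransferase that hands on shortened acyl chains, went from 493 ± 31.7 to 391 ± 26.8 (SD, n = 3 mice each; log2 fold change -0.33, adjusted p = 0.0265, limma, and 0.0861 without control mouse 1). Abcd2, a peroxisomal fatty acyl-CoA transporter, went from 16.0 ± 2.17 to 10.9 ± 1.69 (log2 fold change -0.52, adjusted p = 0.0475, limma, and 0.041 without that mouse). Of 18 genes of mitochondrial beta-oxidation and ketogenesis, 0 were at adjusted p under 0.05 in limma, edgeR or limma voom and 2 in DESeq2, both lower (6 at unadjusted p under 0.05 in limma). The median was -0.04, with -0.05 for the thiolase Acaa2 (adjusted p = 0.597, limma).

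Ppara, the receptor of this programme, had values of 631, 564 and 606 in L-RalyKO and 601, 582 and 553 in control mice, which overlap (log2 fold change 0.05, 95% interval -0.08 to 0.19, adjusted p = 0.662, limma). In the list of 10 receptors and cofactors Hnf4a, which encodes a central hepatocyte transcription factor, rose (846 ± 47.8 against 581 ± 86.8, SD, n = 3 mice each; log2 fold change 0.55, adjusted p = 0.0155, limma, and 0.0509 without control mouse 1). Pparg, a lipogenic relative of Ppara, fell from 13.4 ± 2.73 to 7.93 ± 0.912 (log2 fold change -0.68, adjusted p = 0.0214, limma, and 0.0403 without that mouse). The summed adipocyte markers, of which Cfd and Cidec were lower without overlap and Fabp4 overlapped, moved in the same direction as Pparg. Their part in it was not tested. Of 21 other tested PPARA target genes, 1 fell and 20 did not pass, with a median log2 fold change of -0.10, 16 of 21 below 0 and 5 at unadjusted p under 0.05 (limma). The groups did not overlap in 4 that were lower and 1 that was higher (Slc27a2). Of all tested genes, 13.7% were lower and 14.4% higher without overlap. The one that fell was Vnn1, the pantetheinase, with 37.2, 51.1 and 54.8 in L-RalyKO and 139.8, 100.6 and 93.7 in control mice (log2 fold change -1.20, adjusted p = 0.00648, limma, and -1.03 with 0.0138 without control mouse 1). The abundant targets Fabp1 (-0.11, adjusted p = 0.573) and Slc27a2 (0.07, adjusted p = 0.516; limma) did not pass. Apart from Vnn1, the lower genes without overlap were the lipid droplet genes Plin2 (-0.50, adjusted p = 0.107), Cidec (-1.41, adjusted p = 0.105) and Cidea (0, 0.0870 and 0 in L-RalyKO against 14.1, 0.526 and 0.892, adjusted p = 0.192; limma), named after their values were seen. In each of the 3 control mouse 1 was the highest.

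**Figure D5:**
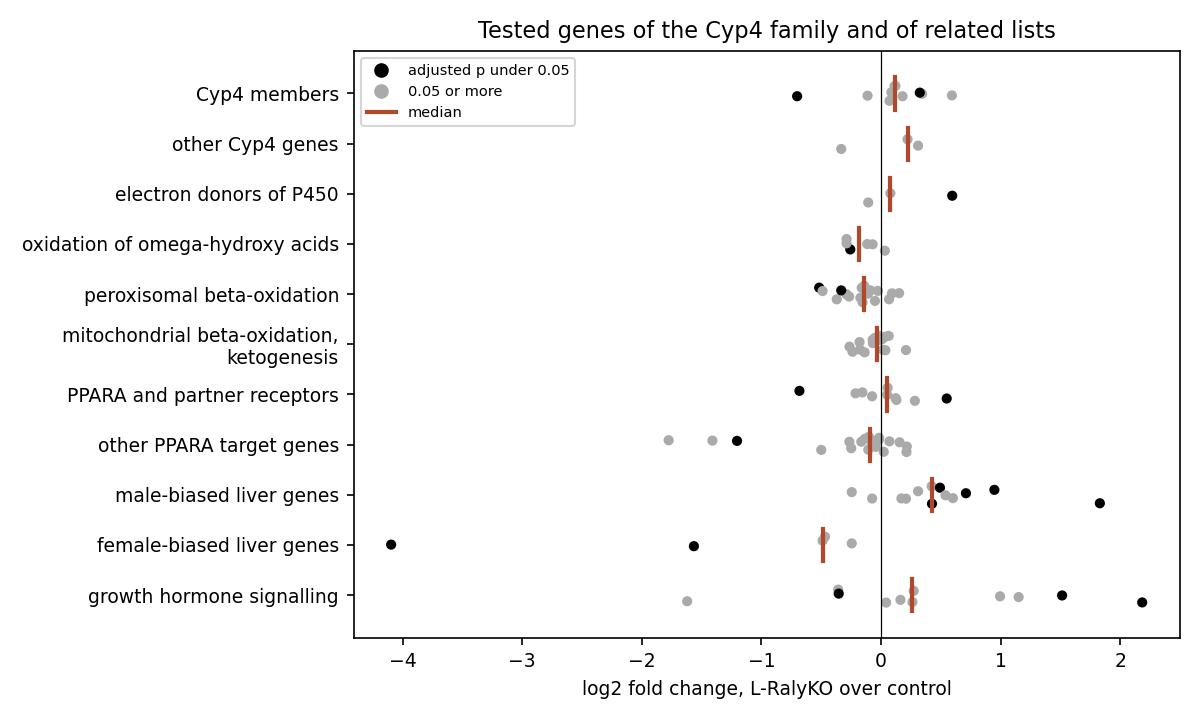
Log2 fold changes of L-RalyKO over control for the tested genes of the Cyp4 family and of 10 related lists. Each point is 1 gene (black, adjusted p under 0.05 in limma), and red bars give the median of a list, which is 0.12 for the Cyp4 members and -0.10 for the other PPARA targets.

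Because Cyp4a12a is a sex-biased gene of male liver, sex-biased genes and growth hormone signalling were also counted. Of all tested genes, 3.36% passed higher, 3.19% passed lower and 22.7% had an unadjusted p under 0.05 (limma). Of 13 male-biased genes 5 rose, 0 fell and 8 did not pass, with a median log2 fold change of 0.43. They included the glutathione transferase Gstp1 (0.71, adjusted p = 0.00196, limma), Selenbp2 (1.83, adjusted p = 0.00216, limma), the complement gene C6 (0.49, adjusted p = 0.00587, limma) and the steroid hydroxylase Cyp7b1 (0.43, adjusted p = 0.0377, limma). Without control mouse 1, 3 of the 13 rose (Gstp1, Selenbp2 and C6), and edgeR called 3. Of 5 tested female-biased genes 2 fell and 3 did not pass, and 3 fell without control mouse 1. The 2 were the cytochromes P450 Cyp2b9 (-4.10, adjusted p = 0.000406, limma, and 0.00218 without that mouse) and Cyp2b13 (-1.56, adjusted p = 0.00363, limma, and 0.0165). Cyp2b13 had 0, 0.029 and 0.053 in L-RalyKO and 2.12, 1.26 and 2.97 in control mice. It thus passed the filter on low values only through the controls. At such values its log2 fold change depends on the 1 added before the logarithm. Of 11 tested genes of growth hormone signalling 2 rose (Cish and Socs3, feedback inhibitors), 1 fell (Stat5b, the signal transducer, log2 fold change -0.35, adjusted p = 0.0346, limma) and 8 did not pass. The log2 fold changes of Cish and Socs3 were 2.18 and 1.51 (adjusted p = 0.00981 and 0.0214, limma). Without that mouse the adjusted p was 0.039 for Cish, 0.0776 for Socs3 and 0.0307 for Stat5b (limma), and in this list edgeR called 0 higher and 2 lower, limma voom 1 and 1, and DESeq2 2 and 3. An unadjusted p under 0.05 (limma) was reached by 10 of the 11. Bcl6 and Onecut1 were named after their values were seen. The repressor Bcl6 had 8.99, 12.6 and 10.2 in L-RalyKO and 59.3, 48.2 and 13.9 in control mice. It was lower without overlap, with control mouse 3 close to the L-RalyKO range (-1.62, adjusted p = 0.0654, limma). Onecut1 had 25.5, 38.2 and 20.4 in L-RalyKO and 10.0, 6.10 and 25.0 in control mice. Control mouse 3 thus lay within the L-RalyKO range (adjusted p = 0.144, limma). Cyp4a12a, with its log2 fold change of 0.11 (0.01 to 0.26 with 1 mouse left out), was not among the male-biased genes that rose at the threshold.

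Zonal markers were counted because Cyp4a genes are expressed mainly around the central vein. Of 8 pericentral markers, Cyp1a2 rose (log2 fold change 0.48, adjusted p = 0.0441, limma), Lgr5 fell (-0.53, adjusted p = 0.0441, limma) and 6 did not pass. In this list edgeR called 0 higher and 1 lower. Of 8 periportal markers, Pck1 rose (0.78, adjusted p = 0.00312, limma) and 7 did not pass. In this second list 7 of 8 were above 0, and DESeq2 called 2, both higher. An unadjusted p under 0.05 (limma) was reached by 6 of the 8, where 22.7% of all tested genes did. In the pericentral list 5 of 8 were above 0 and 2 reached it. Without control mouse 1 the adjusted p was 0.133 for Cyp1a2, 0.123 for Lgr5 and 0.012 for Pck1 (limma). The sum of the periportal markers was 14554 to 15355 in L-RalyKO and 10259 to 12435 in control mice, and that of the pericentral markers 11749 to 12808 and 10737 to 11733. Most of the first sum came from Cps1 and Pck1 (means of 5559 and 5448 in L-RalyKO mice). Most of the second came from Cyp2e1 (9605), whose groups overlapped. The part of these markers in the Cyp4 values was not tested.

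Over the 6 livers the genes most like Cyp4a14 by Pearson's correlation of log2(value + 1) were Pomgnt2 (r = 0.999), Vmac (0.989), Pou2f1 (0.980), Ddx39b (0.978) and Map3k10 (0.976). None of the 5 was at adjusted p under 0.05 (0.0702 to 0.263, limma). Those most like Cyp4a12a were Slc25a22 (0.985), Dis3l2 (0.980), Rmnd5a (0.978), Hk2 (0.969) and Dtd2 (0.967). Among the 10 members, Cyp4a14 went against Cyp4f14 (r = -0.917) and with Cyp4a10 (0.892), Cyp4a10 against Cyp4a12a (-0.915), Cyp4a12b with Cyp4f13 (0.907) and Cyp4a31 with Cyp4a32 (0.906). These were picked from many correlations over 6 libraries that also differ by group, and they serve as a description.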

How the data were processed

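Stranded libraries of 150-base paired-end reads were aligned by the authors with TopHat 2.0.2 to mm9 and quantified as FPKM with Cufflinks 2.0.2. The values the authors deposited are another signal, whose making is not described in the methods. They are reads per gene divided by the effective size of the library. In each column 100% of values were whole multiples (within 0.01 reads) of what 1 read is worth, so that reads were recovered for the count tests, and the scaling factors were equal to TMM factors of edgeR. How reads with several matches were counted is not given in the sources used here.

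Groups came from the sample titles, and columns were matched by virus and replicate number. The main test was limma 3.58.1 in R 4.3.3 with an intensity trend on log2(value + 1), unpaired as in the study, for genes whose mean value reached 1. It was tested on simulated data beforehand, as were edgeR 4.0.16, limma voom and DESeq2 1.42.0. Intervals are at the 95% level. Coding sequences were aligned with MAFFT 7.526. Members and gene lists were chosen with earlier results of these data known, so they carry no independent support. All members are named, and of each list up to 4 genes at adjusted p under 0.05, or with fewer than 2 such genes also the 2 most abundant. In the marker lists this was limited to those called. Some genes that this rule names are not reported here. Serpina1e is the male-biased gene that also passed and is not named in the results. Nothing in the labels says whether same-group livers were processed together, and p values measure the spread between these mice. Same-numbered mice are different animals.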

Additional observations from a re-analysis of the deposited data

How the results depend on the processing

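Of all genes 758 passed (389 higher, 369 lower). With no filter on low values 484 did, with total count scaling 795 (325 higher, 470 lower), with DESeq2 1084, and with 1 mouse left out from 332 (without L-RalyKO mouse 1) to 813. Without L-RalyKO mouse 2, L-RalyKO mouse 3 or control mouse 1 there were 437, 491 and 369. The 2 members past the threshold became 1 with limma voom, with no filter on low values, with no intensity trend, with upper-quartile scaling and with the replicate block (adjusted p of Cyp4f14 0.0642, limma). In each of these the 1 was Cyp4a14. Leaving out 1 mouse gave 1 to 2, and Cyp4a12b was the second without control mouse 3. The fall of Cyp4a14 passed in all 17 alternatives and the direction of each member was the same in all of its alternatives, total count scaling included, which moved the median of all genes to -0.03. The log2 difference in the ratio of Cyp4a14 to Cyp4a12a (-0.81) was -0.58 to -1.06 without 1 mouse and -0.96 with Cyp4a12a and Cyp4a12b summed. With the replicate block 704 genes passed. Deviations of same-numbered mice correlated at 0.066, -0.024 and 0.02, and those of differently numbered mice at -0.088 to 0.06. No pairing by number was seen in this, but 3 mice per group cannot exclude one. For Cyp4a14 the spread between mice exceeded counting error, whereas for Cyp4f13 counting error (up to 2.49%) was of the size of that spread (1.35% and 2.91%).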

Other observations

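Cyp46a1, cholesterol 24-hydroxylase, begins with the same letters in its symbol but belongs to another family and was not counted with the Cyp4 genes. It was picked for naming after its values were seen. It had 3.40, 3.39 and 2.39 in L-RalyKO and 8.35, 7.22 and 4.95 in control mice, without overlap, from 91 to 280 reads per mouse. The difference was -0.93 on the log2 scale (adjusted p = 0.0185, limma), and the adjusted p was 0.0597 without control mouse 1.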
